A study of Mus musculus with 3 samples.

Results

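The genes described here encode the enzymes and receptors through which cells read extracellular nucleotides and adenosine: Entpd1, Nt5e, Ada, Adora2a, Adora2b, P2rx4, P2rx7, P2ry6, P2ry12 and P2ry14. They were chosen by gene symbol, and levels and differences in these same arrays were known when they were chosen, so every value of theirs is a description. Of the 10 genes listed, 7 carried a named probe set, 1 each, out of 19505 named genes on the array. Adora2a, Adora2b and P2ry14 were not analysed here.

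The cells were plasmacytoid dendritic cells, the dendritic cells specialised in secreting type I interferon, grown from the femoral and tibial marrow of WT male BALB/c mice aged 4 to 5 weeks. Marrow was cultured for 6 to 9 days with Flt3 ligand at 100 ng/mL, CpG oligodeoxynucleotides were used for maturation, and the mature cells were sorted. One group was treated with Astragaloside IV, a triterpenoid saponin, and another with Oxymatrine, a quinolizidine alkaloid, each for 12 h and followed by the CCR7 ligand CCL21 for 1 h. The third group was labelled control. The labels do not say whether control cells received CCL21 or a vehicle, nor the doses or the number of mice pooled, so the compound and the CCL21 step cannot be told apart in a difference from control. Each of the 3 groups had 1 array, so no value below has a replicate error and no test was possible. The series asked how both compounds restrain the migration of these cells.

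ATP released by activated or damaged cells acts on P2X channels and P2Y receptors. The ectoenzyme CD39, encoded by Entpd1, removes phosphates from ATP and ADP, and CD73, encoded by Nt5e, turns the resulting AMP into adenosine. Adenosine signals through its own receptors, mostly restraining inflammation, until adenosine deaminase, encoded by Ada, converts it to inosine. Dendritic cells respond to ATP and UDP with migration and cytokine release, and plasmacytoid dendritic cells can be restrained by adenosine.

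The members differed from control by unlike amounts. Entpd1 was lower in the oxymatrine array by a log2 difference of -0.99, and the UDP receptor gene P2ry6 by -0.36, while the differences of the other 4 members above background lay between -0.07 and 0 there. In the astragaloside IV array the differences of the 6 members above background lay between -0.20 and 0.07. Nt5e, the gene of the enzyme that acts after CD39, was below background in every array.

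The values are log2 levels made by the authors with RMA, which scales the arrays to each other and summarises the probes of each probe set. The medians over probe sets still differed, at 5.74 with astragaloside IV and 5.75 with oxymatrine, against 5.68 in control. Background was set at a log2 level of 5.28, which 95% of 1410 receptor genes of smell and pheromone sensing do not exceed; such genes are normally silent in blood cells. The mean level of 6 of the 7 members was above it, as was that of 10671 genes in all, and each of those 6 was above it in every array. Probe sets differ in brightness, so levels of different genes are not compared as amounts.

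Entpd1 was the member with the widest range, and the sequences around its annotated starts are shown for that reason, beside that of P2rx4, a member that hardly differed between arrays. The RefSeq table used here (GRCm38.p6) holds 2 starts for Entpd1 on chromosome 19, at chr19:40612116-40612415 and chr19:40659520-40659819, both on the plus strand, and 1 for P2rx4, at chr5:122707294-122707593 on the plus strand. Capitals mark matches to 1 or more of these motifs, searched on both strands: the cyclic AMP response element TGACGTCA, its short form TGACG, the AP-1 site TGANTCA, the GC box GGGCGG, the ETS core GAGGAAG and the TATA box TATAAA. The short form lies inside the full element, so both can overlap.
Entpd1 start 1: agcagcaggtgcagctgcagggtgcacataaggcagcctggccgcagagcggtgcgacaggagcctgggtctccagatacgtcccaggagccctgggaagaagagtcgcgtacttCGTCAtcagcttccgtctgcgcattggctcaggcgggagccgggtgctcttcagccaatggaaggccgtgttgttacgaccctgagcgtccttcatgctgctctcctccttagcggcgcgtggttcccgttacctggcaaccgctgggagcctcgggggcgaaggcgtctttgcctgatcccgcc
Entpd1 start 2: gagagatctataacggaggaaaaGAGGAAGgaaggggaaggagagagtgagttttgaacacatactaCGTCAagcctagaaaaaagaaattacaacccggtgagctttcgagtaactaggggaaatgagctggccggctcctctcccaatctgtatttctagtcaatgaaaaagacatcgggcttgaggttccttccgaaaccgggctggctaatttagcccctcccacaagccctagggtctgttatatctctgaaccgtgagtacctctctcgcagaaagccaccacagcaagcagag
P2rx4: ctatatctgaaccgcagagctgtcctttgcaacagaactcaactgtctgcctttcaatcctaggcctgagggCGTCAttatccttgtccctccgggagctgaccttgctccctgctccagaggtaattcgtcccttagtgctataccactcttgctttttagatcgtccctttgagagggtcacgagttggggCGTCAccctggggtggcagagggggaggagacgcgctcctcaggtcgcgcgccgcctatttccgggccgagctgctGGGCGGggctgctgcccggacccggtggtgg

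The first Entpd1 window held 23 CG dinucleotides and the second 10, against 18 in the P2rx4 window. Each Entpd1 window held 1 match to the short form of the cyclic AMP response element and the P2rx4 window held 2, all in the complementary reading CGTCA, and 20.9% of the 32544 RefSeq windows of this length hold that short form. The second Entpd1 window also held 1 ETS core, present in 13.4% of windows, and the P2rx4 window 1 GC box, present in 35.9%. No full cyclic AMP response element was found in these windows, and 1.8% of all windows hold one. The AP-1 site and the TATA box were not found in these windows either, and 7.79% and 13.6% of all windows hold them in that order. Outside the printed windows, those of Nt5e, Ada, P2rx7 and P2ry12 held no match to the short form, so P2rx4 does not stand for the other members. No window was available for P2ry6, so its start was not searched. A match of letters is a description of the sequence. The array does not say which start was used.

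Among the enzymes, Entpd1 stood at a log2 level of 9.67 with astragaloside IV and 8.75 with oxymatrine, against 9.74 in control. The oxymatrine array was therefore the low one, and the astragaloside IV array lay beside control. The difference was -0.99 for oxymatrine minus control, a size of 1.99-fold and so just short of 2-fold, and -0.07 for astragaloside IV minus control. Set against each other, the astragaloside IV array was higher than the oxymatrine array by 0.92, or 1.89-fold.

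Genes of similar level give a scale for these differences, although not a replicate error. Genes above background were sorted by mean level into 20 bins of equal size, and the SD of a comparison over the genes of a bin is called the bin SD. For oxymatrine minus control the bin SD at Entpd1 was 0.20. The Entpd1 difference was -4.92 times that value, and 0 of the 533 other genes of that level had a difference as large in either direction. Over all 10671 genes above background it ranked 18 from the lowest. For astragaloside IV minus control the same gene lay at -0.41 times the bin SD, and 44.4% of genes of that level were at least as far from 0.

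Few genes reached such sizes. For oxymatrine minus control, 0.281% of genes above background were 2-fold apart and 3.31% were 1.5-fold apart, with 2.01% of genes 1.5-fold lower. Of the 6 members above background, 0 were 2-fold apart and 1, Entpd1, was 1.5-fold lower. For astragaloside IV minus control, 0.197% of genes were 2-fold and 2.13% were 1.5-fold apart, and 0 members reached either size. For astragaloside IV minus oxymatrine, 0.159% were 2-fold and 2.58% were 1.5-fold apart, with 1.46% of genes 1.5-fold higher, and Entpd1, higher with astragaloside IV, was again the member past 1.5-fold. With each array centred on its median, the share of genes 1.5-fold lower with oxymatrine was 2.92% and the Entpd1 difference was -1.06, past 2-fold. Since these contrasts were part of how the genes were chosen, the count is given beside the background and nothing is read from it.

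Nt5e was at a log2 level of 3.69 with astragaloside IV and 3.59 with oxymatrine, against 3.59 in control. All 3 values lie below background, so no difference is read from them. Ada was at 7.32 with astragaloside IV and 7.25 with oxymatrine, against 7.25 in control. Its oxymatrine and control values were identical, and the difference of 0.07 with astragaloside IV was 0.28 times the bin SD.

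Identical values are frequent in this table. Among genes above background, 51.6% carried an identical value in 2 or more arrays and 24.4% were identical between oxymatrine and control. Of the 7 members, 4 carried an identical value in 2 or more arrays. An equal value is thus frequent in these arrays and says nothing of the precision of a gene.

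**Figure D1:**
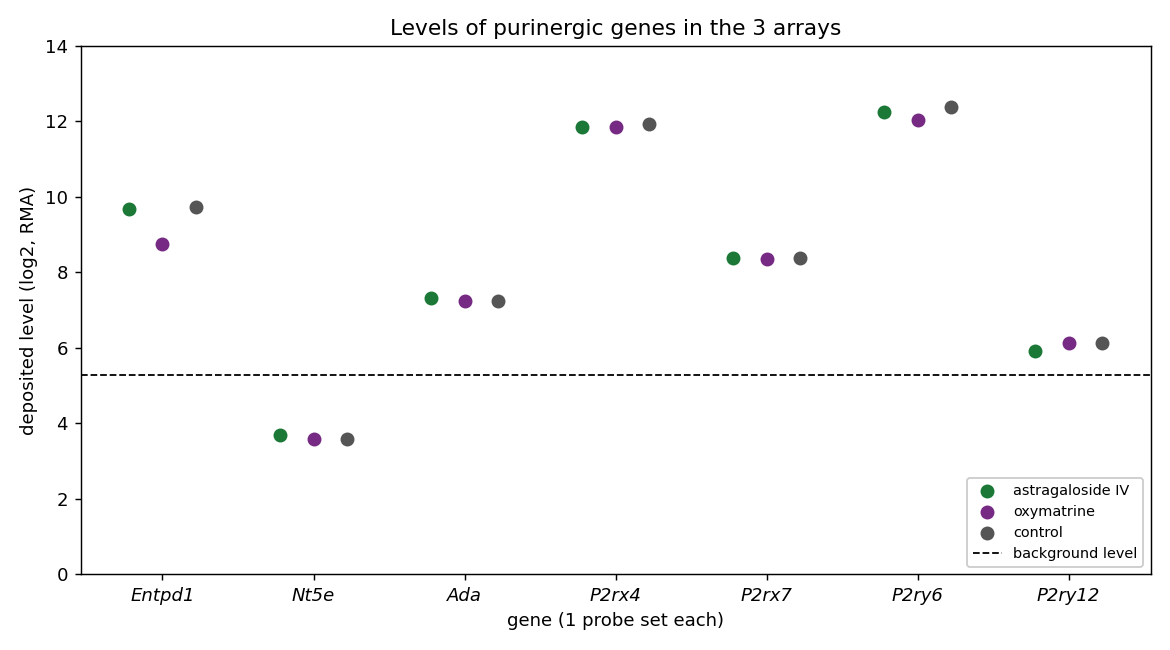
Deposited log2 level (vertical axis) of the 7 members with a probe set, 1 point per array, for the astragaloside IV, oxymatrine and control arrays from left to right within each gene, with the background level of 5.28 as a dashed line. Entpd1 is lower in the oxymatrine array at 8.75, and Nt5e lies below the line in every array. The points of each other gene lie closer together than those of Entpd1, with P2ry6 at 12.03 with oxymatrine against 12.39 in control.

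Of the ATP-gated channels, P2rx4, a cation channel of endolysosomes and the cell surface, was at a log2 level of 11.84 with astragaloside IV and 11.86 with oxymatrine, against 11.93 in control. Both treated arrays were slightly below control, by -0.09 and -0.07 on the log2 scale. P2rx7, the low-affinity ATP channel that triggers the NLRP3 inflammasome in macrophages, was at 8.39 with astragaloside IV and 8.35 with oxymatrine, against 8.39 in control. Its astragaloside IV and control values were identical and the oxymatrine value differed from control by -0.04. For both channels these differences were less than 1 bin SD. The genes of P2rx7 and P2rx4 stand next to each other on chromosome 5 in the RefSeq order, and neither differed by more than 0.09 in any of the 3 comparisons.

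Of the G protein-coupled nucleotide receptors, P2ry6, the UDP receptor, was at a log2 level of 12.26 with astragaloside IV and 12.03 with oxymatrine, against 12.39 in control. Both treated arrays were below control, oxymatrine further. The difference of -0.36 for oxymatrine minus control, a size of 1.28-fold, was -2.28 times the bin SD, and 4.31% of those genes, P2ry6 included, were at least as far from 0. With astragaloside IV the difference was -0.13, or -1.02 times the bin SD, and astragaloside IV minus oxymatrine was 0.22, or 1.77 times the bin SD.

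P2ry12, the ADP receptor known from platelets and microglia, was dim, at 5.93 with astragaloside IV and 6.13 with oxymatrine, against 6.13 in control. The astragaloside IV array was lower by a difference of -0.20, which is -0.79 times the bin SD, and 31.1% of those genes were at least as far from 0. P2ry14, P2ry13 and P2ry12 lie close together on chromosome 3. P2ry13, another ADP receptor, was close to background at 5.41 with astragaloside IV and 5.48 with oxymatrine, against 5.36 in control. Gpr171, a neighbour of P2ry14, was bright at 12.08 and 12.10, against 12.10. Med12l, the gene before Gpr171 in that order, was at 5.70 and 5.92, against 5.70. Among other neighbours of members, Snx14 beside Nt5e differed by 0.03 and -0.01, and Camkk2 beside P2rx4 by -0.11 in both.

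Counted by sign, 4 of the 6 members above background were lower in the oxymatrine array and 2 equal, with a median log2 difference of -0.06. In the astragaloside IV array 4 were lower, 1 was higher and 1 equal, with a median of -0.08. Over all genes above background 46.0% lay below control, 29.7% above it and 24.4% level with it in the oxymatrine array, and 40.8%, 31.4% and 27.7% in the astragaloside IV array in that order, with medians of 0 in both. Both comparisons share the single control array, so a low or high control value moves them together.

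**Figure D2:**
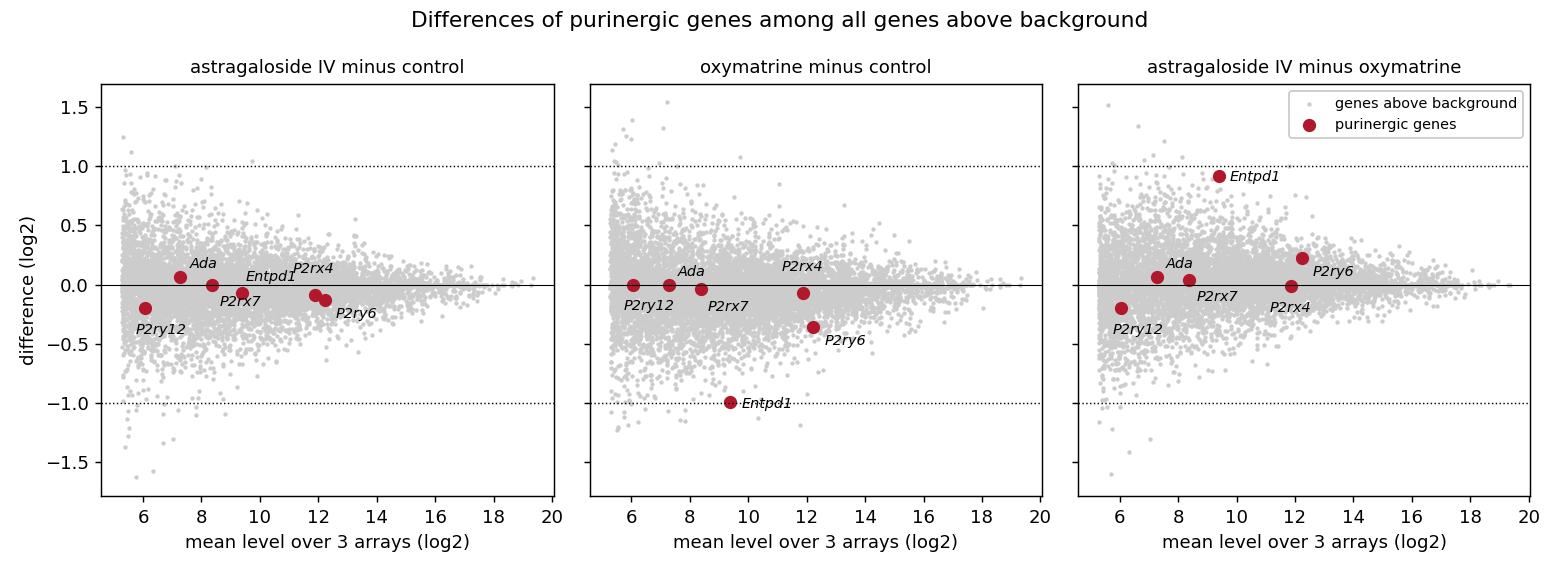
Log2 difference (vertical axis) against mean log2 level over the 3 arrays (horizontal axis) for the 6 members above background, in red, among all 10671 genes above background, in grey, with dotted lines at 2-fold. Entpd1 lies at the edge of the cloud for oxymatrine minus control (-0.99) and astragaloside IV minus oxymatrine (0.92), P2ry6 lies toward the lower edge for oxymatrine minus control (-0.36), and all members lie inside the cloud for astragaloside IV minus control.

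The profile of Entpd1 over the 3 arrays was set against those of 10670 genes, each gene taken relative to its own mean. Predicted genes, clones, small RNAs, receptor genes of smell and genes not coding for protein were then left out. Of the rest, Fbxo6, Zfp664 and Itm2a were closest, with Euclidean distances of 0.03, 0.06 and 0.07 on the log2 scale. Fbxo6, a ubiquitin ligase subunit that binds glycoproteins, was at 10.70 with astragaloside IV and 9.82 with oxymatrine, against 10.79 in control. Zfp664, a zinc finger gene, was at 6.51 and 5.61, against 6.52. Itm2a, a membrane protein gene, was at 5.77 and 4.95, against 5.89, so its oxymatrine value was below background. With 3 arrays a profile holds little information, and no shared control is read from it.

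The rest of the pathway was described from 8 further lists with 119 genes, of which 107 had a probe set and 80 were above background. In the oxymatrine array 38 of the 80 were lower, 23 were higher and 19 equal, which as shares are 47.5%, 28.8% and 23.8%, close to those of all genes. In the astragaloside IV array 25 were lower, 30 were higher and 25 equal, or 31.2%, 37.5% and 31.2%. These splits turn on the scaling: with each array centred on its median, 66 were lower and 14 higher with oxymatrine, and 62 were lower and 18 higher with astragaloside IV. The median was 0 in both comparisons with the deposited values. Counts of the single lists below stand beside the shares of all genes given above, and nothing is read from them.

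Among the other ectoenzymes of nucleotides, Entpd6 and Entpd4, relatives of CD39 found mainly on internal membranes, were lower with oxymatrine as well, by less than Entpd1. Entpd6 was at 7.51 with astragaloside IV and 6.95 with oxymatrine, against 7.50 in control, a difference of -0.55 for oxymatrine. Entpd4 was at 10.96 and 10.64, against 11.05, a difference of -0.40. These 2 differences were -1.98 and -2.19 times the bin SD, and neither was 1.5-fold. Of 7 enzymes of this list above background, 6 were lower and 1 equal in the oxymatrine array, with a median of -0.15, while in the astragaloside IV array 2 were lower, 4 were higher and 1 equal, with a median of 0.01. Over all genes above background 46.0% were lower with oxymatrine. Some of the 6 differences were small, such as Enpp4 at -0.08. The list mixes surface enzymes with enzymes of internal membranes, so the count says nothing of nucleotide breakdown at the cell surface. Entpd5, an endoplasmic reticulum enzyme of this family, had differences of 0.26 in cells given astragaloside IV and -0.01 in those given oxymatrine. With astragaloside IV Enpp4 differed by 0.05, Entpd4 by -0.08 and Bst1, a cyclase related to CD38, by -0.15.

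Genes that clear or rebuild adenosine had differences of either sign. Of 14 above background, the oxymatrine array had 7 lower, 4 higher and 3 equal, and the astragaloside IV array 4 lower, 6 higher and 4 equal. Among all genes above background 46.0% were lower and 29.7% higher with oxymatrine, and 40.8% and 31.4% with astragaloside IV. Nothing is read from these splits. Pnp, purine nucleoside phosphorylase, which takes up the inosine that adenosine deaminase makes, was low in both treated arrays, at 11.16 with astragaloside IV and 11.14 with oxymatrine, against 11.62 in control. Its differences of -0.46 and -0.48 were -3.23 and -2.71 times the bin SD. Its paralogue Pnp2 was at 10.79 in both, against 11.17, and probes may not tell the 2 genes apart. Both values rest on the same control array, which was the high one.

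The AMP deaminase gene Ampd2 was low with oxymatrine, at 9.50 with astragaloside IV and 8.96 with oxymatrine, against 9.50 in control. Its difference of -0.54 was -2.69 times the bin SD. The concentrative nucleoside transporter gene Slc28a2 was higher in both, at 8.13 and 8.33, against 7.77, with differences of 0.35 and 0.56. Nt5c3, a cytosolic nucleotidase, was higher by 0.18 in both.

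Of the channels that release ATP, Gja1, which encodes connexin 43, was at 4.99 with astragaloside IV and 5.21 with oxymatrine, against 6.13 in control. Both treated values lie below background, so the sizes of the differences, -1.14 and -0.92, rest on dim values. Its mean passed the background filter only through the control value, so the filter itself favoured a low difference from control. Panx1, the pannexin channel that opens with P2X7, differed by -0.27 and -0.19. Calhm2, a large-pore channel of the CALHM family, was at 8.52 in both treated arrays, against 8.09 in control, and the scramblase gene Ano6 was higher by 0.26 in both. Lrrc8a, the obligate subunit of the volume-regulated anion channel, was higher by 0.18 with astragaloside IV and 0.40 with oxymatrine. Of the 11 genes of this list above background, the astragaloside IV array had 4 lower and 5 higher, and the oxymatrine array 3 lower and 6 higher.

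Of 9 other nucleotide receptors with a probe set, 5 were above background. P2rx5 stood at 11.31 and P2ry1, an ADP receptor, at 5.97 in each array. P2ry2, the receptor for ATP and UTP and the neighbour of P2ry6 on chromosome 7, was at 8.06 with astragaloside IV and 8.02 with oxymatrine, against 8.21 in control. P2rx6 was higher in both, at 7.32 and 7.60, against 7.04, and its oxymatrine difference of 0.56 was 2.01 times the bin SD. Of receptors related to P2Y12 by sequence, Gpr34, a lysophosphatidylserine receptor, was higher with oxymatrine, at 7.10, against 6.40 with astragaloside IV and in control, a difference of 0.71 or 2.59 times the bin SD. P2ry10 differed from control by 0.17 in cells given astragaloside IV and 0.05 in cells given oxymatrine, and P2ry10b by -0.20 and -0.22.

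Downstream of these receptors the arrays were close. Of 20 G protein and cyclic AMP signalling genes above background, 9 were lower and 6 were higher in the oxymatrine array, where Gna11, a G protein subunit that couples receptors to phospholipase C, was higher by 0.43, Prkacb by 0.16, and Prkar1a and Pde4b differed by -0.18 and -0.16. With astragaloside IV 6 were lower and 7 higher, among them Prkar2b, a regulatory subunit of protein kinase A, at -0.32, Gnas, the subunit that stimulates adenylyl cyclase, at -0.07, Prkaca at 0.14 and Pde3b at 0.17. Of 11 genes known to be induced by cyclic AMP, 5 were lower, 2 were higher and 4 equal in the oxymatrine array, with Per1 at -0.17, Nr4a2 at -0.13, Sik1 at 0.01 and Nr4a1 at 0.15. With astragaloside IV 3 were lower, 2 higher and 6 equal, with Nr4a1 at -0.23, Rgs2 at -0.08, Nr4a2 at 0.08 and Fosl2 at 0.13. The median of both lists was 0 in both comparisons.

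Of 9 effectors of P2X7, the oxymatrine array had 7 lower and 1 higher, with a median of -0.11, and the astragaloside IV array 4 lower and 3 higher, with a median of 0. Over all genes above background 46.0% were lower and 29.7% higher with oxymatrine. Some of the 7 differences were small, such as Il1b at -0.02, and nothing is read from the count. The 1 higher with oxymatrine was Gsdmd, by 0.0034. Pycard, the inflammasome adaptor, differed by -0.24 and Il18 by -0.22 with oxymatrine. With astragaloside IV Panx1, which is counted here as well as among the release channels, differed by -0.27, Casp1 by -0.10 and Il18 by 0.09. Il1b was at 15.29 with astragaloside IV, a difference of 0.06, and 15.21 with oxymatrine, against 15.23 in control. None of the 9 reached 1.5-fold in either comparison.

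**Figure D3:**
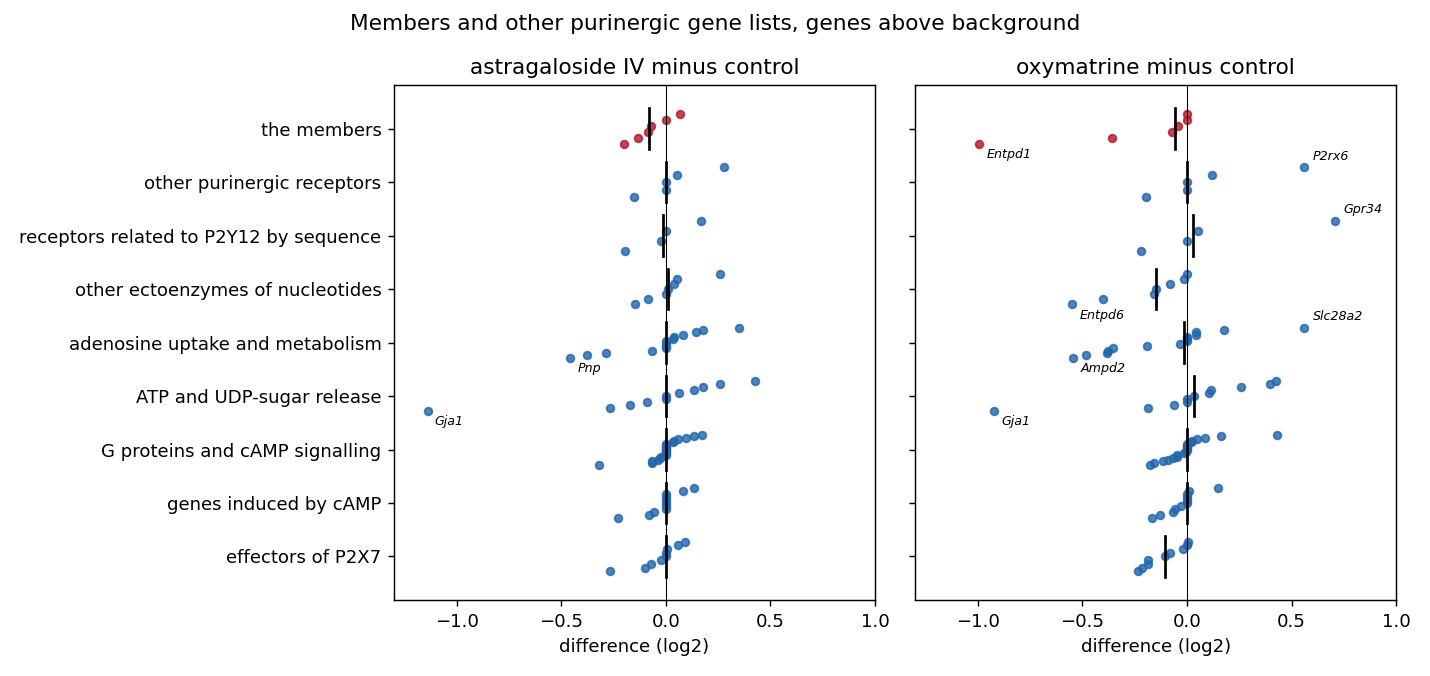
Log2 difference from control (horizontal axis) of genes above background in the members (red) and the 8 further purinergic lists (blue), with astragaloside IV on the left and oxymatrine on the right, 1 point per gene and a black bar at each list median. Entpd1 (-0.99) stands apart from the other members with oxymatrine, and Gja1 is the lowest of the other genes in both panels. Gja1 was above background in the control array only and passed the filter through that value. The list of other ectoenzymes, which includes enzymes of internal membranes, lies at or below 0 with oxymatrine.

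Markers of several cell types are given beside the label of the cells, and do not settle how pure the samples were. Of 13 measured plasmacytoid dendritic cell markers, 12 were above background and Pacsin1 was below. In the astragaloside IV array 6 of the 12 were lower and 6 equal, with a median of -0.05 (on the log2 scale) and Ly6d at -0.30 and Ccr9 at -0.27. In the oxymatrine array 8 were lower, 2 were higher and 2 equal, with a median of -0.02 and Spib at -0.48 and Ccr9 at -0.32, while Tcf4, the factor that maintains the lineage, was equal in all 3 arrays. The mean of the 13 was 10.40 with astragaloside IV and 10.39 with oxymatrine, against 10.49 in control. Because CD39 and P2Y6 are also carried by macrophages and other dendritic cells, the marker levels are given beside the Entpd1 and P2ry6 values. All 9 measured monocyte and macrophage markers were above background, with a mean log2 level of 11.62 with astragaloside IV and 11.64 with oxymatrine, against 11.70 in control, and a median difference of 0 in both comparisons. In control they ran from 7.39 for Mertk to 14.12 for Adgre1, so the samples are not shown to be free of such cells. Of 7 markers of type 1 conventional dendritic cells, 5 were above background, and the defining Xcr1 and Clec9a were below it. In the astragaloside IV array 3 of the 5 were lower, 1 higher and 1 equal, with Itgae at -0.73 and Tlr3 at 0.53. In the oxymatrine array 4 were lower and 1 higher, with Itgae at -0.49 and Tlr3 at 0.10. Among all genes above background 40.8% and 46.0% were lower in that order, and nothing is read from these counts. The mean of the 7 was 7.06 with astragaloside IV and 6.94 with oxymatrine, against 7.14 in control. For type 2 conventional dendritic cells 4 of 6 were above background, with Cd209a and Mgl2 below, and the mean was 8.50 and 8.45, against 8.43. That mean covers unlike levels. Sirpa stood at 14.90 in each array, and in control Itgam stood at 14.69, Irf4 at 8.50 and Clec10a at 5.90. The samples are thus not shown to be free of these cells either. Of 8 T and NK cell markers, 5 were below background, Cd3e, Cd3d and Cd3g among them, and the mean was 4.85 and 4.91, against 4.98. Of the 3 above it, Il2rb differed by -1.01 in cells given astragaloside IV and -0.84 in those given oxymatrine, Cd8b1 by 0 and -0.52, and Cd4 by 0.24 and 0.23. Of 7 neutrophil markers 3 were above background, all lower with astragaloside IV with a median of -0.49, and 2 lower and 1 equal with oxymatrine with a median of -0.10. The mean of the 7 was 7.05 and 7.29, against 7.30. Of 5 B cell markers 3 were above background, with medians of 0 and 0.08, of 4 platelet markers 3, with medians of 0 in both, of 5 mast cell and basophil markers 1, and of the erythroid list 0. The part of these cell types in the Entpd1 and P2ry6 values was not tested, and fewer cells of a type cannot be told apart from less RNA per cell in these bulk samples.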

How the data were processed

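Total RNA of 3 samples was labelled with a whole-transcript kit and hybridised to 1 array each, per the labels. The deposited values are log2 levels made by the authors with RMA, per the submitters' processing notes; its software, version and genome build were not given in the sources used here, and the log base was read from the values' range. Precision is limited by the number of arrays. All 28846 probe sets were read. The platform annotation of 2019 named 19572, each with 1 symbol, and all matched RefSeq by Entrez identifier. The brightest probe set on average stood for each of 55 genes that had more than 1. Background was the 95th percentile over 1410 receptor genes of smell and pheromone sensing (Olfr and Vmn). Differences are treated minus control, or astragaloside IV minus oxymatrine. SDs come from 20 level bins. With 1 array a group no test was made.

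The members and lists were chosen with earlier results of these data known. Named were all members, every receptor above background, and the 2 highest and 2 lowest of each other list per treated array where not 0. The 3 genes nearest Entpd1 in profile were named after leaving out predicted genes, clones, small RNAs, receptor genes of smell and genes not coding for protein. Promoter windows are RefSeq's. Calculations were run on simulated data, where 100 of 100 genes moved 3-fold passed 2-fold. The simulated noise was smaller than the bin SD at Entpd1, so this checks the arithmetic and not the sensitivity of these arrays. Alternatives were median centring, quantile normalisation, lowess centring (fraction 0.3), other filters and folds, and the mean over probe sets. Tools were Python 3.11.15, numpy 2.4.6, pandas 2.3.3, statsmodels 0.14.6 and matplotlib 3.10.9.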

Additional observations from a re-analysis of the deposited data

How the results depend on the processing

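Every difference of the 6 members above background moved by less than the bin SD under median centring, quantile normalisation, lowess centring and the mean over probe sets, 72 values over 18 differences. The mean over probe sets could not move them, because each member had a single probe set. Median centring moved every gene of a comparison by the same amount, -0.06 for both differences from control. The agreement under median centring and under the mean over probe sets was therefore fixed in advance. Nt5e, below background, has no bin SD. Entpd1 ranged from -1.06 to -0.96 for oxymatrine minus control and from 0.89 to 0.93 for astragaloside IV minus oxymatrine, and P2ry6 from -0.42 to -0.32 for oxymatrine minus control. Because Entpd1 lies at the threshold, the count of members 2-fold apart for oxymatrine minus control was 1 with median centring, against 0 with the deposited values. At 1.5-fold it was 1 for oxymatrine minus control and 1 for astragaloside IV minus oxymatrine.

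Counts over all genes turned on the filter and the fold. For astragaloside IV minus control, 21 genes were 2-fold apart, 11 with the 99th percentile filter, 79 with no filter, 227 at 1.5-fold and 1 at 3-fold. For oxymatrine minus control the counts were 30, 17, 90, 353 and 0 in the same order, and for astragaloside IV minus oxymatrine 17, 9, 82, 275 and 1. With median centring the calls at 2-fold for oxymatrine minus control were 9 higher and 29 lower, and with quantile normalisation 10 higher and 24 lower, against 14 higher and 16 lower.

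The sign counts of the 80 other pathway genes turned on small shifts, since many values are equal. For astragaloside IV minus control, 25 were lower and 30 higher, 62 lower and 18 higher with median centring, and 53 higher with lowess centring. For oxymatrine minus control, 38 were lower and 23 higher, 66 lower and 14 higher with median centring, 39 higher with quantile normalisation, 45 higher with lowess centring and 37 higher with no filter. For astragaloside IV minus oxymatrine, 24 were lower and 34 higher, 48 lower with quantile normalisation, 46 lower with lowess centring and 56 higher with median centring. No paired analysis was possible because each group had 1 array. With no replicates, the arrays cannot show whether the Entpd1 difference would recur.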
